A study of Homo sapiens with 27 samples.

Results

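The genes described here are 10 genes of the pluripotency network of human embryonic stem cells: POU5F1, NANOG, PRDM14, ZSCAN10, ZFP42, DPPA4, DPPA2, L1TD1, DNMT3B and TDGF1. They were taken by symbol, and each symbol matched 1 of the 44852 genes in the deposited count and TPM tables (TPM, a transcript level corrected for gene length and library size). RNA was collected during differentiation towards photoreceptor progenitors on 3 laminin matrices, named LN523, LN323 and LN521 after their labelled isoform, from the embryonic stem cell line H1. Laminins are basement membrane proteins that carry the cultured cells. Each matrix was sampled at days 2, 22 and 32 with 3 libraries, which makes 9 groups and 27 libraries. The sample titles give earlier day numbers for the same libraries. The days used here are those of the day labels and of the deposited tables.

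All groups share the same line and the same schedule. Day 2 libraries are labelled as undifferentiated cells and were taken when CKI-7, a casein kinase inhibitor, and SB431542, an inhibitor of the ACTIVIN and NODAL type I receptors, were first given. Day 22 and day 32 cultures had received both inhibitors and then a photoreceptor medium with BDNF, CNTF, retinoic acid and DAPT, a Notch pathway inhibitor. The sources differ on what the matrices contain, since the design text describes LN323 alone or mixed with LN521 or LN523, while the study's methods describe LN521 alone or mixed with LN523 or LN323. One cell line was used, and no source states that the 3 libraries of a group came from separate cultures, so p-values measure the spread between these libraries, which may be technical.

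Library totals ranged from 25620624 to 47340990 counts, with a median of 39862487. Of the non-zero counts, 68.8% were even, as when both mates of a read pair are counted, so a count may hold fewer fragments than its size. The replicate number is also the sequencing lane. The LN521 libraries of replicate 1 at days 22 and 32 stood apart from the other late libraries in the genes described here, and each result that rests on them is given with and without them. In bulk RNA, fewer cells expressing a gene and less of its RNA per cell cannot be told apart.

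Pluripotent cells keep their identity through a network of transcription factors that activate one another and their shared targets. POU5F1 (OCT4), NANOG and SOX2 form its core and bind many regulatory elements together, often at a composite site for SOX and octamer factors. On differentiation the network is shut down, and its genes are commonly measured to detect undifferentiated cells left in a culture. Because the members are themselves targets of the network, the regulatory sequence in front of one of them is shown first.

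The 250 bases upstream of the NANOG start site (RefSeq, GRCh38.p14, chr12:7789152-7789401, + strand) hold the composite site, which is in capitals on the strand opposite to the gene. These bases overlap no NANOG exon in GENCODE 44, and exons of other genes were not checked. GENCODE starts NANOG further upstream, at 7787794, so the window lies inside its annotated span.
NANOG: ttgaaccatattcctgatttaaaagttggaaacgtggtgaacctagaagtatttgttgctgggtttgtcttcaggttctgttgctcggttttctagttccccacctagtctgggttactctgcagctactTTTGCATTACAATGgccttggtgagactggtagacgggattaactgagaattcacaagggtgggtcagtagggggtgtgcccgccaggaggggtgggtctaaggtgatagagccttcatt
The search covered both strands of promoter windows from 250 bases before to 50 bases after a start site, and 7 of the 10 genes had one. POU5F1, TDGF1 and PRDM14 were not searched. The SOX letters CATTGT were in 10.8% of 35116 windows and the octamer core ATGCAAA in 4.46%. Both together, 1 base apart, were in 3 windows, or 0.00854%. NANOG was the only one of the 7 with the pair, the octamer core starting 120 bases before its start site, and the full octamer ATGCAAAT, which contains the core, was in none of the 7 windows against 1.77% of all windows. A match is a description of letters and not a measurement of binding.

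At day 2, all 10 genes were expressed in all 9 libraries, at levels that differed by gene far more than by library. The core factor POU5F1 (ENSG00000204531, chromosome 6, 31164337 to 31180731, GRCh38) was among the highest, at 2529, 2216 and 2394 TPM on LN523, 2572, 2556 and 2597 on LN323 and 2302, 2415 and 2570 on LN521. Its highest day 2 library stood at 1.17 times its lowest, the narrowest range of the 10. NANOG (ENSG00000111704, chromosome 12, 7787794 to 7799146), the homeobox partner of POU5F1, was at 87.9, 85.9 and 84.1 TPM on LN523, 118, 85.4 and 115 on LN323 and 66.4, 75.6 and 78.7 on LN521. In NANOG the LN521 libraries were the lowest of the day and did not overlap either other matrix.

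Of the zinc finger factors, PRDM14 (ENSG00000147596), which represses differentiation genes and sustains POU5F1 expression, was the most variable. It was at 583, 271 and 524 TPM on LN523, 284, 479 and 247 on LN323 and 396, 423 and 370 on LN521, and its highest library was 2.36 times its lowest. LN523 and LN323 ran in opposite directions by lane, each holding libraries above and below all those of LN521. ZSCAN10 (ENSG00000130182, chromosome 16, 3088890 to 3099295) ranged from 175 to 338 TPM, with values of 243, 298 and 175 on LN523, 333, 209 and 338 on LN323 and 246, 266 and 183 on LN521. ZFP42 (ENSG00000179059, chromosome 4, 187995771 to 188005046), known as REX1 and long used as a marker of undifferentiated cells, ranged from 391 to 562 TPM with a median of 484.

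DPPA4 (ENSG00000121570) and DPPA2 (ENSG00000163530), neighbours on chromosome 3 whose proteins act as a chromatin-bound pair, were at very different levels. DPPA4 (109326144 to 109337546) had a median of 576 TPM and a range of 539 to 746, the 3 LN521 libraries at 694, 746 and 743 lying above all 6 others. DPPA2 (109293788 to 109316517) was the lowest of the 10, with a median of 52.8 TPM and a range of 39.8 to 76.1.

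DNMT3B (ENSG00000088305, chromosome 20, 32762385 to 32809359), a de novo DNA methyltransferase abundant in pluripotent cells, was the highest member, with a median of 3185 TPM and a range of 2759 to 3843. L1TD1 (ENSG00000240563, chromosome 1, 62194849 to 62212328), an RNA-binding protein derived from a LINE-1 element, was at 855, 982 and 673 TPM on LN523, 1001, 557 and 1067 on LN323 and 545, 759 and 502 on LN521. TDGF1 (ENSG00000241186, chromosome 3, 46574534 to 46582457), the CRIPTO co-receptor of NODAL, ranged from 307 to 587 TPM with a median of 367. By median the order was DNMT3B, POU5F1, L1TD1, DPPA4, ZFP42, PRDM14, TDGF1, ZSCAN10, NANOG and DPPA2. Ranges of neighbours overlapped for most pairs in that order, the exceptions being DNMT3B above POU5F1, POU5F1 above L1TD1 and ZSCAN10 above NANOG. In counts, the 10 genes took 0.810% to 1.01% of a day 2 library. Part of the exonic length of POU5F1 (8.64%) lies opposite TCF19 and part of that of TDGF1 (4.42%) opposite LRRC2, and the strand setting of the counting is not given in the sources used here.

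**Figure D1:**
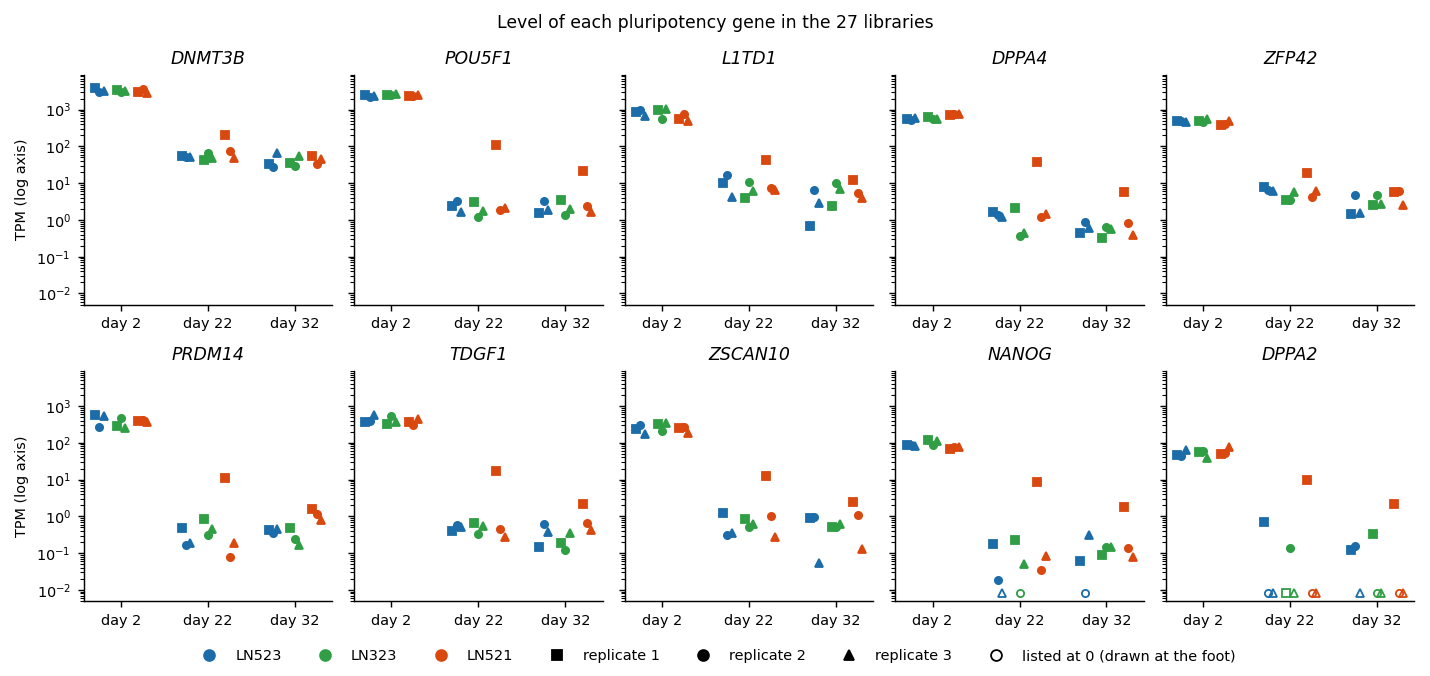
Level of each of the 10 genes in the 27 libraries, in TPM on a log axis, by day and matrix (colour), with the marker shape giving the replicate and open markers at the foot showing libraries listed at 0. The 9 day 2 libraries of a gene lie together, the late libraries lie far below them, and LN521 replicate 1 (orange square) is the highest day 22 library in all 10 panels.

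Matrix differences at day 2 were small, and the few that passed the test depended on single libraries. The test was edgeR's quasi-likelihood test on counts, with lane as a block and Benjamini-Hochberg adjustment over all genes tested (threshold 0.05). LN523 against LN323 gave 0 members past the threshold, where 0.233% of all 38650 genes were called. Log2 fold changes ran from -0.38 (ZSCAN10) to 0.41 (PRDM14), and 2 of the members, PRDM14 and ZSCAN10, had an unadjusted p-value under 0.05. DESeq2 also called 0. Without LN323 replicate 2, 3 members passed (L1TD1, PRDM14 and ZSCAN10), and without LN523 replicate 2, 1 did (PRDM14).

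Against LN521, 8 of the 10 genes had positive log2 fold changes on LN523 and 8 on LN323, though not the same 8. Negative were DPPA4 and DPPA2 (-0.015) on LN523, and DPPA4 and PRDM14 (-0.012) on LN323. L1TD1 was the 1 member called on LN523 (log2 fold change 0.68, SE 0.17, adjusted p = 0.0169 in edgeR), where 0.624% of genes were called. It was higher in 3 of 3 lanes. On LN323, 3 members were called, where 2.5% of genes were: L1TD1 (0.81, SE 0.17, adjusted p = 4.05e-04 in edgeR), NANOG (0.77, SE 0.19, adjusted p = 0.00418) and ZSCAN10 (0.62, SE 0.18, adjusted p = 0.0301). NANOG was higher in 3 of 3 lanes, and L1TD1 and ZSCAN10 in lanes 1 and 3 only.

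The median log2 fold change of all genes tested was itself -0.19 for LN523 and -0.20 for LN323 against LN521, while the medians of the 10 genes were 0.31 and 0.36. After the filterByExpr filter on low counts these shifts of all genes were -0.01 and -0.03, and 0 genes of any kind were called in either comparison (2103 and 3116 at an unadjusted p under 0.05). DPPA4 ran against most of the other genes, at -0.20 and -0.12, both short of the threshold. Leaving out LN521 replicate 1, which had the largest TMM scaling factor of all 27 libraries (1.17) and a total of 30577756 counts, left 0 members called in both comparisons. Other libraries mattered as well: L1TD1 on LN523 was called in 2 of 6 fits that left out 1 library, being lost without LN521 replicate 1 or 3 or LN523 replicate 1 or 2, and without LN523 replicate 2 PRDM14 was called in its place. On LN323, all 3 calls were lost without LN323 replicate 1 or 3, and that of ZSCAN10 also without LN521 replicate 3.

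In CPM (counts scaled to library size after TMM), the 3 libraries of LN523 and LN521 did not overlap for NANOG, L1TD1 and DNMT3B, against 13% of all genes. For LN323 and LN521 the same held for POU5F1, NANOG and DNMT3B, against 16.5% of genes, and for LN523 and LN323 for POU5F1 alone, against 6.32%. In TPM, which is not TMM-scaled, L1TD1 and DNMT3B overlapped between LN523 and LN521 and NANOG did not. Between LN323 and LN521, POU5F1 and DNMT3B overlapped in TPM and NANOG did not. POU5F1 still did not overlap between LN523 and LN323. DPPA4 was lower in TPM on LN523 and on LN323 than on LN521 without overlap.

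**Figure D2:**
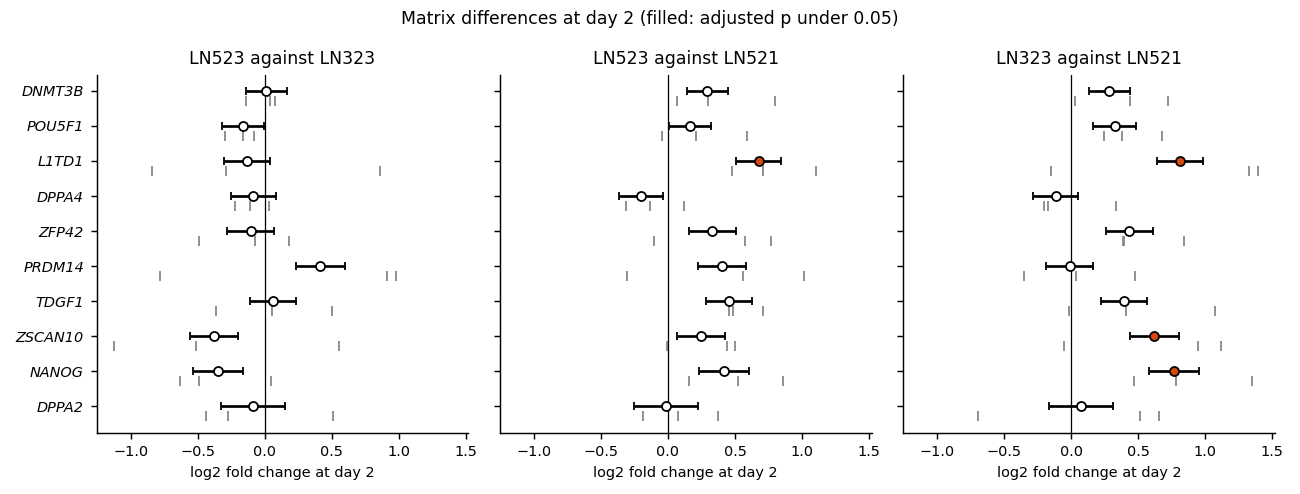
Log2 fold change of each gene between matrices at day 2, as the fitted value (circle) with its standard error (bar), filled where the edgeR adjusted p is under 0.05, and the differences within each of the 3 lanes as short ticks. The 4 filled circles are all in comparisons with LN521, and the ticks of L1TD1, PRDM14 and ZSCAN10 lie on both sides of 0 between LN523 and LN323.

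Between day 2 and day 22 all 10 genes fell on all 3 matrices. On LN523 the 10 log2 fold changes ran from -11.06 (PRDM14, SE 0.74) to -6.31 (DNMT3B, SE 0.34), with a median of -9.08. All passed the edgeR threshold, where 21.7% of 44852 genes were called in either direction. On LN323 they ran from -10.97 (NANOG, SE 0.99) to -6.26 (DNMT3B, SE 0.34), with a median of -9.89, and again 10 of 10 were called against 22.7% of genes. On LN521 the range was -7.34 (PRDM14, SE 0.62) to -4.92 (DNMT3B, SE 0.32), with a median of -6.08, and 10 of 10 were called against 18.9%. The median change of all genes tested was 0.02 on LN523, 0.02 on LN323 and -0.02 on LN521. The calls held for 10 of 10 genes on each matrix in all alternatives run, leaving out each library included.

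The weaker fold changes on LN521 came with replicate 1 of day 22. Without it, the log2 fold change moved from -6.97 to -10.06 for POU5F1, from -5.83 to -10.06 for NANOG, from -7.34 to -11.39 for PRDM14 and from -6.38 to -9.92 for TDGF1. DPPA4 moved from -6.63 to -8.89 and ZSCAN10 from -6.33 to -8.26. The genes with more signal left in every library moved less, DNMT3B from -4.92 to -5.58, L1TD1 from -5.07 to -6.46 and ZFP42 from -5.59 to -6.44. DPPA2 was at 0 counts in both remaining LN521 libraries, so no fold is given for it there.

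POU5F1 showed the size of the fall in single libraries. Its day 2 counts ran from 51563 to 96997, and its day 22 counts were 72, 95 and 42 on LN523, 56, 38 and 56 on LN323 and 3254, 56 and 54 on LN521. Every group other than LN521 thus held fewer than 100 counts per library, as did LN521 replicates 2 and 3. NANOG fell from 2838 to 8361 counts at day 2 to 10, 1 and 0 on LN523, 8, 0 and 3 on LN323 and 480, 2 and 4 on LN521. DPPA2 fell from 549 to 1108 counts to 10, 0 and 0 on LN523, 0, 2 and 0 on LN323 and 138, 0 and 0 on LN521. For these lowest genes 3 counts were taken as the floor, and 4 libraries for NANOG and 7 for DPPA2 were below it at day 22. At this depth their remaining level was not detectable in those libraries.

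DNMT3B kept the most counts, with 2640, 2378 and 2055 on LN523, 1238, 3213 and 2526 on LN323 and 9885, 3724 and 1963 on LN521 at day 22, so that it was measured well above the floor in every library. Across the transcriptome such falls were rare. At least 10 CPM at day 2 on each matrix was reached by 9916 genes. Of these, 58 (0.585%) had a median of under 1% of their day 2 CPM left at day 22. Among the 58 were 8 of the 10 genes, all but DNMT3B and ZFP42. The median gene had 88.2% left. At day 32, 61 genes (0.615%) and 9 of the 10 were under 1%, all but DNMT3B.

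The genes did not all fall to the same depth. The percent left in each late library was taken against the mean day 2 TPM of the same matrix, with counts under 3 set to 3. By the median of the 9 libraries of day 22, DNMT3B kept 1.55%, ZFP42 1.27% and L1TD1 1.18%. DPPA2 followed with 0.424%, a value set by the floor in 7 of 9 libraries and so an upper limit there.

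Lower in the order came DPPA4 with 0.215%, ZSCAN10 with 0.205%, TDGF1 with 0.123%, PRDM14 with 0.0912%, POU5F1 with 0.0870% and NANOG with 0.0740%. The NANOG median is itself the value of a library at 0 counts set to the floor, and so an upper limit. DPPA2 apart, whose value is an upper limit, the lowest medians were those of the core factors POU5F1 and NANOG and of PRDM14. Their order was not resolved, TDGF1 was not separated from PRDM14, and the methyltransferase stood highest. Without LN521 replicate 1 PRDM14 was last (0.0689%), after POU5F1 (0.0813%) and NANOG (0.0727%), and it was last also in CPM and against the day 2 library of the same lane. Neighbours in the order were compared by an exact two-sided sign-flip permutation test over the 9 libraries, on the same values that set the order. The 3 libraries of a matrix share 1 day 2 mean, so the 9 values are not independent and the p-values may be too small. After Benjamini-Hochberg adjustment over 9 pairs, 3 pairs passed, but that of DPPA2 and DPPA4 was set by the floor and is no measured difference: with counts as they are, the median left in CPM was 0% for DPPA2 and 0.195% for DPPA4. The other 2 pairs were DNMT3B above ZFP42 and ZSCAN10 above TDGF1, each higher in 8 of 9 libraries with adjusted p = 0.0234 in the permutation test. Their mean differences were 0.61 and 0.89 on the log2 scale (SD 0.55 and 0.83). The other 6 neighbours did not differ beyond their spread (permutation adjusted p from 0.225 to 0.652). With 1 library fewer, 0 pairs passed when LN523 replicate 2 or 3, LN323 replicate 2 or 3 or LN521 replicate 3 was the one left out.

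At day 32 DNMT3B again kept the most, with 1.12%, followed by L1TD1 with 0.769%, ZFP42 with 0.576%, DPPA2 with 0.419% (at the floor in 7 of 9 libraries) and ZSCAN10 with 0.207%. NANOG was at 0.139%, DPPA4 at 0.106%, PRDM14 at 0.0978%, TDGF1 at 0.0888% and POU5F1 at 0.0773%. DPPA2 apart, POU5F1 and TDGF1 had the lowest medians. No neighbours differed at day 32 after adjustment (0 of 9 pairs; exact permutation test, smallest adjusted p = 0.176). At an unadjusted p under 0.05 were DNMT3B above L1TD1 (higher in 7 of 9 libraries) and a pair set by the floor of DPPA2, whose median with counts as they are was 0%.

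**Figure D3:**
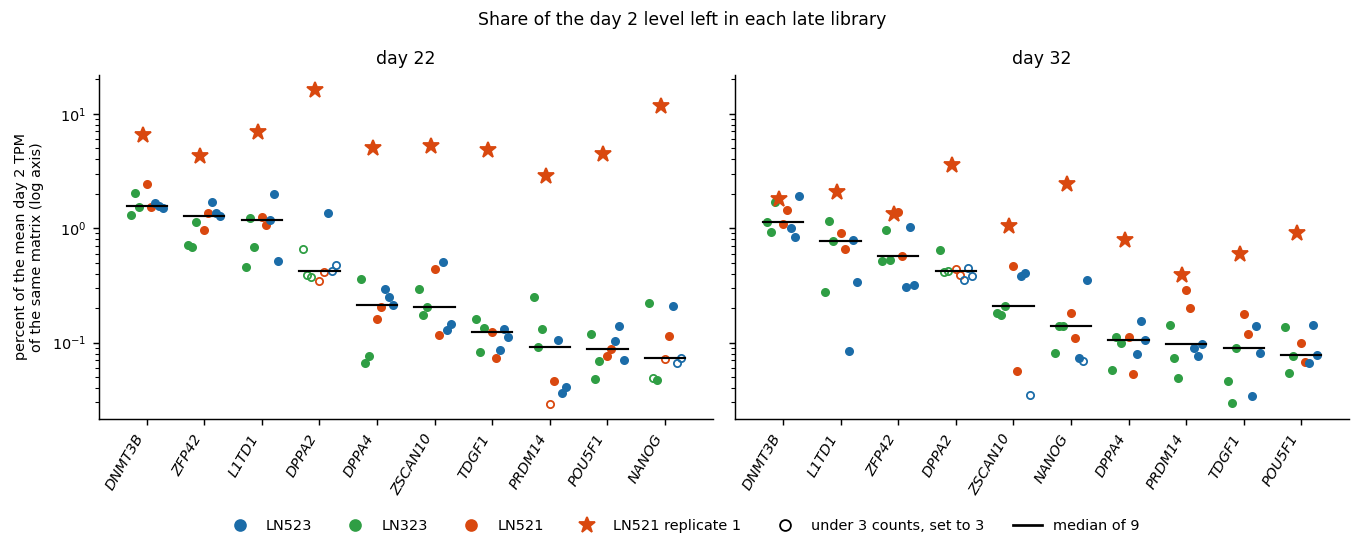
Percent of the mean day 2 TPM of the same matrix left in each day 22 and day 32 library, on a log axis, with genes ordered by the median of the 9 libraries (bar) and libraries under 3 counts set to 3 (open circles). LN521 replicate 1 (star) is the highest library for all 10 genes at day 22, from 2.86% for PRDM14 to 16.1% for DPPA2, and for 8 of 10 at day 32.

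One library held far more of the residue than any other. In LN521 replicate 1 of day 22, the summed level of the 10 genes was 470 TPM, while the 8 other day 22 libraries held 57.4 to 92.3 TPM. It was the highest of the 9 libraries for 10 of 10 genes. The same held for 12.4% of all genes tested and for 9.56% of 10299 genes with at least 10 CPM at day 2 on LN521. The median percent left over the 10 genes was 5.15%.

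Among the transcription factors, POU5F1 held 3254 counts there against 38 to 95 in the 8 others, NANOG 480 against 0 to 10, PRDM14 289 against 2 to 13, ZSCAN10 420 against 8 to 41 and ZFP42 519 against 60 to 220. TDGF1, the NODAL co-receptor, held 918 against 12 to 30. The chromatin and RNA-binding members held 1916 against 20 to 84 (DPPA4), 138 against 0 to 10 (DPPA2), 9885 against 1238 to 3724 (DNMT3B) and 1674 against 98 to 630 (L1TD1). In TPM, POU5F1 was 54.9 times and TDGF1 36.8 times the median of the 8 others, while DNMT3B was 3.98 times and ZFP42 3.25 times that median. The genes with the most left in the other libraries, DNMT3B, ZFP42 and L1TD1, had the smallest ratios. The other lane 1 libraries of day 22 had a median of 0.400% left on LN523 and 0.326% on LN323.

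The same library was also high in other genes of undifferentiated cells, from lists chosen with earlier results known. Of 20 other pluripotent stem cell genes, 11 were highest there, including FOXD3, GDF3, UTF1, ESRG, VRTN, LIN28A, USP44, PODXL, TET1, POLR3G and JADE1. Of 10 genes of the naive state, 6 were, with DPPA5 at 56 counts and DPPA3 at 6 where the 8 other libraries had 0 of either. KLF17 and ARGFX, which also mark naive cells, were at 0 there and in the 8 other libraries as well. The summed level of the naive state genes, 71.8 TPM, lay within the 23.2 to 118 TPM of the others.

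Some markers of other cells were also highest in this library, while their summed levels lay within the range of the others. It was highest for 2 of 8 mesendoderm markers, 3 of 7 germ cell markers, 2 of 8 trophoblast markers (CGB5 at 0), 2 of 8 neural retina and eye field markers and 2 of 8 photoreceptor markers, beside 12.4% of all genes tested. SOX1, an early neural factor, held 187 counts against 0 to 42 in the 8 others, SOX3 1320 against 100 to 826, CRX, a photoreceptor factor, 618 against 64 to 338, OTX2 2383 against 267 to 1842 and TFAP2A 1460 against 228 to 982. TBXT held 10 counts and DAZL 6, where the others had 0. Its summed eye field level of 1102 TPM lay within the 771 to 1919 TPM of the others, as did the photoreceptor level of 91.5 TPM within 31.1 to 132, the mesendoderm level of 13.0 within 4.71 to 38.0, the germ cell level of 30.9 within 15.9 to 64.1 and the trophoblast level of 89.4 within 46.9 to 132. The library held 40679201 counts in total. Whether undifferentiated cells, another cell type or the handling of the sample gave these values was not tested.

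Genes other than the 10 that were lost nearly everywhere were also present in this library. The genes considered had at least 10 CPM at day 2 on LN521. In 41 of them, 6 among the 10, each of the 8 other day 22 libraries was at 1% or less of the mean day 2 CPM of its own matrix. Those 6 had a median of 4.68% left in LN521 replicate 1, and the 35 others a median of 2.83%, with 30 of the 35 above 1%. These 41 genes were chosen by low values in the other 8 libraries, so the contrast is a description.

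**Figure D4:**
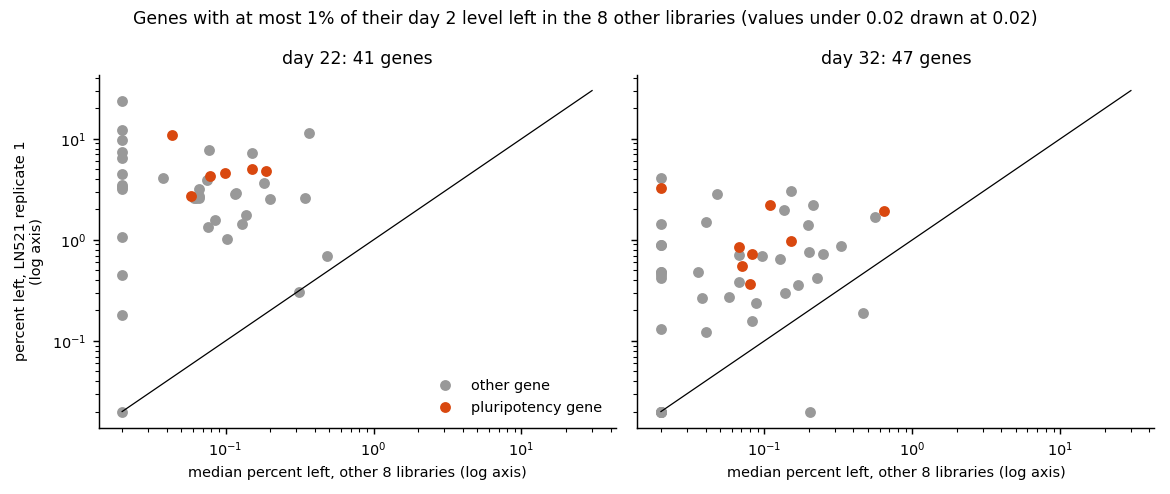
Percent of the mean LN521 day 2 CPM left in LN521 replicate 1 against the median percent left in the 8 other libraries, each relative to its own matrix. Both axes are log, with a line of equality, and the genes are those at or under 1% in each of those 8 (values under 0.02 drawn at 0.02). At day 22 most of the 41 genes, the 6 pluripotency genes included, lie above the line, and at day 32 the 8 pluripotency genes among 47 have a median of 0.913% left in LN521 replicate 1.

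At day 32 LN521 replicate 1 again had the highest summed level, 112 TPM against 39.7 to 72.5 in the 8 others. It was the highest library for 8 of 10 genes. The same held for 18.6% of all genes tested and for 24.1% of those with at least 10 CPM at day 2 on LN521. The exceptions were DNMT3B, highest in LN523 replicate 3, and ZFP42, highest in LN521 replicate 2. POU5F1 held 605 counts against 40 to 90, DPPA4 272 against 14 to 40, NANOG 91 against 0 to 18 and DPPA2 28 against 0 to 4. The percent left ran from 0.390% (PRDM14) to 3.56% (DPPA2), with a median of 1.19%. Relative to day 22, the 10 genes were at 12.4% (TDGF1) to 31.2% (ZFP42) of that level, with a median of 20.5%. Its summed eye field level of 1386 TPM lay within the 682 to 2218 TPM of the others, the photoreceptor level of 215 TPM within 74.7 to 252 and the mesendoderm level of 19.0 within 2.46 to 50.7 (TBXT and SOX17 at 0). The germ cell level of 71.8 TPM lay above the 12.5 to 46.8 TPM of the others (DDX4, DPPA3 and SOX17 at 0), with 2 of 7 markers highest there. Most of that level was TFAP2C (39.4 TPM) and PRDM1 (22.6 TPM), which is also on the photoreceptor list, while DAZL had 2 counts. The trophoblast level of 99.2 TPM lay above 17.1 to 93.2 (CGB5 at 0), with 2 of 8 highest. The part of these 2 marker lists in the residue was not tested. Both libraries share a matrix and a lane number, and no source says that they came from the same culture.

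The matrix differences called at day 22 were lost without that library. With it, all 10 log2 fold changes against LN521 at day 22 were negative on both other matrices. On LN523, 2 members were called against 0.572% of 38609 genes: NANOG (log2 fold change -4.50, SE 0.89, adjusted p = 0.00146 in edgeR) and DNMT3B (-0.90, SE 0.21, adjusted p = 0.0141). On LN323, 4 were called against 0.616% of genes: POU5F1 (-2.55, SE 0.53, adjusted p = 0.00229 in edgeR), NANOG (-3.50, SE 0.86, adjusted p = 0.0196), DPPA4 (-2.84, SE 0.45, adjusted p = 1.21e-05) and DNMT3B (-0.85, SE 0.21, adjusted p = 0.0267).

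Without LN521 replicate 1 of day 22, 0 members were called in either comparison, and 6 of 10 genes had a positive fold change on LN523 and 4 of 10 on LN323. Without the replicate block, 0 were called in either. Within lanes 2 and 3, POU5F1 differed by -0.56 and -0.16 in log2(CPM + 0.1) between LN323 and LN521, where lane 1 gave -5.05. NANOG had 0 and 2 counts in lane 2 and 3 and 4 in lane 3, at or under the floor, against 8 and 480 in lane 1. The LN523 calls were also lost without LN523 replicate 1 or 3, and the count rose to 7 without LN521 replicate 2, 6 without LN521 replicate 3 and 5 without LN523 replicate 2. The LN323 calls were lost without any 1 of the 3 LN323 libraries, and 6 members were called without LN521 replicate 2 and also without LN521 replicate 3. LN523 against LN323 gave 0 members, against 0.013% of genes, and 1 member (DPPA4, 1.27) had an unadjusted p under 0.05. DESeq2 called 0 there.

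At day 32, 0 members were called between any matrices by edgeR. LN523 and LN323 differed in 0% of 39377 genes (747 at an unadjusted p under 0.05, and 823 genes called by DESeq2), and 0 members had an unadjusted p under 0.05. Against LN521 all 10 fold changes were negative on both matrices. The background was 0.0609% of genes for LN523, with L1TD1 (-1.54) and ZFP42 (-1.001) at an unadjusted p under 0.05. It was 0.117% for LN323, with POU5F1 (-1.34), DPPA4 (-1.62), TDGF1 (-2.18) and PRDM14 (-2.01) at an unadjusted p under 0.05. DESeq2 called 0 members in all 3 comparisons. Without LN521 replicate 1 of day 32, 4 and 7 of the 10 fold changes were positive, and 0 were called. PRDM14 kept its value without that library, at -1.41 on LN523 and -2.003 on LN323.

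Whether the fall from day 2 to day 22 differed between matrices was tested directly by the interaction term, and 0 members passed in any of the 3 comparisons. Between LN523 and LN323, where 0% of 44852 genes were called (949 at an unadjusted p under 0.05), the differences ran from -1.22 (PRDM14) to 1.497 (DPPA2), and 0 members had an unadjusted p under 0.05. Between LN523 and LN521 (0.00446% of genes called) all 10 were negative, down to -5.19 for NANOG (adjusted p = 0.131 in edgeR), and 9 had an unadjusted p under 0.05. Between LN323 and LN521 (0.0201%) all 10 were negative as well, down to -5.14 for NANOG (adjusted p = 0.0623 in edgeR), and 10 had an unadjusted p under 0.05.

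The libraries decided these interaction counts too. Without LN521 replicate 1 of day 22, 4 of 10 differences were positive for LN523 and 3 of 10 for LN323, and 0 were called. Leaving out LN521 replicate 2 or 3 of day 22 in its place gave 4 and 6 called members for LN523 and 6 and 8 for LN323. Other libraries moved the count from 0 as well, to 3 without LN523 replicate 2 of day 22, to 2 without LN323 replicate 1 of day 2 and to 5 without LN323 replicate 2 of day 2.

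From day 22 to day 32 few of the genes changed further. On LN523, 0 members were called against 0.381% of genes, and L1TD1 (-1.501) and ZFP42 (-1.35) had an unadjusted p under 0.05. Leaving out LN523 replicate 2 of day 22 gave 1 called member (ZFP42, lower), and leaving out LN523 replicate 2 of day 32 gave 2 (L1TD1 and ZFP42, both lower). On LN323, 0 were called against 0.0424% of genes, and 0 had an unadjusted p under 0.05. DESeq2 called 0 on both matrices.

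On LN521, 2 members were lower at day 32 against 0.268% of genes: DPPA4 (log2 fold change -2.29, SE 0.55, adjusted p = 0.0484 in edgeR) and DNMT3B (-1.26, SE 0.27, adjusted p = 0.0172). Without the replicate block DNMT3B alone was called. Without LN521 replicate 1 of day 22 the value of DPPA4 was 0.31, 8 of 10 fold changes were positive, and PRDM14 was the 1 member called, as higher. Both calls were also lost without LN521 replicate 2 or 3 of day 32, that of DNMT3B without replicate 1 of day 32, and 4 and 5 members were called without replicates 2 and 3 of day 22. PRDM14 stood at 2 and 4 counts in LN521 replicates 2 and 3 of day 22 and at 23 and 18 in those of day 32.

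Other genes of the network fell to different extents, from lists chosen with earlier results known. For the list counts from here on, 10.2%, 10.9% and 8.09% of all genes tested were called lower at day 22 on LN523, LN323 and LN521. Called higher were 11.5%, 11.8% and 10.8%. Of 20 other pluripotent stem cell genes, 18 were lower at day 22 on each matrix, SFRP2, a secreted WNT modulator, was higher on each, and TET1 was not called. VRTN fell, with log2 fold changes of -10.93, -10.53 and -7.39 on LN523, LN323 and LN521 (each passing in edgeR), from a median of 310.1 TPM at day 2 to 0.303 at day 22. ESRG, a long non-coding RNA, was at -10.23, -10.43 and -7.16. The LN521 values include replicate 1 of day 22, which held 314 counts of VRTN and 701 of ESRG. The other libraries of that day held 2 to 20 and 6 to 18. Fold changes without it are not given for these genes. GDF3, a ligand of the TGF-beta family, was at 0 counts in all 3 LN323 libraries of day 22, and was at least 244-fold lower there against a floor of 3 counts per library. UTF1 was at 0 in the 3 LN523 libraries, at least 132-fold lower.

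SOX2, the third core factor, behaved otherwise. It fell with log2 fold changes of -2.27, -1.94 and -2.02, from a median of 698 TPM at day 2 to 184 TPM at day 22 and 197 TPM at day 32. SOX2 is also used by neural progenitors. LIN28A, an RNA-binding protein that blocks let-7 maturation, had -5.82, -6.33 and -4.23, from 3086 TPM to 56.3 and then 11.8 TPM. LN521 replicate 1 of day 22 held 9718 counts of LIN28A, against 804 to 6649 in the other libraries of that day.

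The NODAL pathway, in which TDGF1 serves as co-receptor, was divided. Of 14 genes, 5 were lower on each matrix, and 4, 5 and 3 were higher on LN523, LN323 and LN521. Lower were TDGF1 itself, the ligands NODAL (-2.15 and -2.12 on LN523 and LN521, and further from 0 on LN323) and GDF3, the inhibitor LEFTY1 (-3.51, -4.52 and -4.37) and the nuclear cofactor FOXH1 (-7.71, -7.59 and -5.78). For FOXH1, LN521 replicate 1 of day 22 held 174 counts, against 4 to 34 in the other libraries of that day. Among those higher on each were the signal transducer SMAD3 (3.31, 3.13 and 2.59) and the receptor ACVR1B (0.70, 0.82 and 1.00). The cultures had earlier received an inhibitor of this pathway's receptors, and its part in these changes was not tested.

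Among 8 DNA methylation enzymes, DNMT3B fell the furthest. The maintenance enzyme DNMT1 was lower, with log2 fold changes of -1.35, -1.57 and -1.06 and a median TPM of 113 at day 2 and 44.03 at day 22. The other de novo enzyme DNMT3A did not pass (-0.14, -0.28 and 0.18), at a median of 68.7 TPM at day 2 and 79.3 TPM at day 22. TET2, a dioxygenase that oxidises methylcytosine, was higher by 3.47, 3.61 and 3.19. In all, 2, 4 and 2 of the 8 were lower and 2, 2 and 1 higher.

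Of the 10 naive state genes, 4, 5 and 2 were lower on LN523, LN323 and LN521 and KLF5 was higher on each. Of all genes tested, 10.2%, 10.9% and 8.09% were called lower and 11.5%, 11.8% and 10.8% higher on LN523, LN323 and LN521. Of the markers of other cells, 6 of 8 eye field genes rose on each matrix, PAX6 by 8.48, 8.75 and 8.81 on the log2 scale. Of the 8 photoreceptor markers, 5, 4 and 5 rose and OTX2 was lower on each. On each matrix 4 of 8 trophoblast markers and 3 of 8 mesendoderm markers rose as well, 1 mesendoderm marker (TBXT) was lower on LN523, and among 7 germ cell markers 2 rose and 2 fell on each matrix. DAZL and DPPA3, the germ cell markers that fell, were at 0 in all 3 libraries of LN523 and of LN323 at day 22, which makes DAZL at least 35.6-fold and 24.3-fold lower and DPPA3 at least 47.7-fold and 63.1-fold lower.

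The genes whose log2 CPM across the 27 libraries was most like the mean profile of the 10 included copies of members and RNAs of undifferentiated cells. Among 15601 genes, the nearest were NANOGP8 (Pearson's r = 0.995), LNCPRESS2 (0.994), ENSG00000254339 (0.994), LINC00678 (0.993) and VRTN (0.993), followed by ENSG00000254277, ENSG00000236673, LINC01090, UTF1 and TDGF1P3, the last at 0.991. The 27 points share day, matrix and depth and fall into day 2 and late libraries, so r is pooled over that separation. The 10 genes themselves correlated with their mean profile at 0.980 (L1TD1) to 0.997 (POU5F1). In LN521 replicate 1 of day 22, these nearest genes had from 1.56% (ENSG00000236673) to 17.1% (UTF1) of their day 2 CPM left. They were chosen by likeness over all 27 libraries, this one included, so these values follow in part from the choice and are a description.

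Pseudogenes of the members held few counts beside them. NANOGP8 had 4.72% and NANOGP1 2.38% of the NANOG counts at day 2, TDGF1P3 had 1.62% of those of TDGF1, and POU5F1P3 and POU5F1B had 0.299% and 0.290% of those of POU5F1. In the late libraries the copies of POU5F1 came closer to it, with up to 46 counts for POU5F1B, 24 for POU5F1P3 and 22 for POU5F1P4, where POU5F1 itself had 38 to 95 in 8 of the 9 day 22 libraries. How reads that match both a gene and its copy were assigned is not given in the sources used here, so the lowest late values of POU5F1 and NANOG are uncertain to that extent.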

How the data were processed

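RNA-seq libraries (stranded total RNA after removal of ribosomal RNA, 150 bp read pairs) were trimmed by the authors with cutadapt, aligned to hg38 with STAR 2.5.2b and counted per gene with featureCounts 1.5.1. The authors deposited whole-number counts per gene and, in a second table, TPM, after removing ribosomal RNA and mitochondrial genes. The strand setting of the counting is not given in the sources used here. GENCODE release 44 named 43052 of the 44852 gene identifiers.

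Counts were tested with edgeR 4.0.16 (R 4.3.3) by the quasi-likelihood test after TMM scaling, on genes whose counts summed to more than 1, fitting group and lane. Day comparisons between matrices used the 9 libraries of that day, time and interaction comparisons all 27. The replicate number is the sequencing lane in the labels, and the study's methods use lane as a covariate, so the block was kept. Over 18900 genes, deviations of same-lane libraries correlated above 0.1 in all 3 lanes only between LN323 and LN523, at day 22 (mean r = 0.506) and day 32 (0.579). The test was checked on simulated counts with known changes. Alternatives were DESeq2 1.42.0 and limma 3.58.1 on log2(TPM + 1) and log2(TPM + 0.1), other scalings, filters and sample sets, and each library left out. Percent left set counts under 3 to 3. Figures and tables used Python 3.11.15.

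All 10 genes were tested in every comparison, and after day 2 called genes and extremes are named. From the other lists, up to 3 genes with the largest changes past the threshold were named, plus SOX2 and LIN28A, and any further gene was named after its values were seen. The 10 genes and the lists were chosen with earlier results of these data known.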

Additional observations from a re-analysis of the deposited data

Results flagged for a closer look

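The TDGF1 difference between LN523 and LN521 had opposite signs on different days. At day 2 LN523 exceeded LN521 in 3 of 3 lanes (log2 fold change 0.46, SE 0.17, edgeR adjusted p = 0.29), and at day 32 LN523 was below LN521 in 3 of 3 lanes (-1.35), with lane differences of -3.17, -0.01 and -0.23. Neither value passed the threshold, and the difference between the days was not tested. LN521 replicate 1 of day 32 held 104 counts of TDGF1, and the 8 other libraries of that day held 6 to 29.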

How the results depend on the processing

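The fall of all 10 genes from day 2 to day 22 passed on every matrix in every alternative run. Counts of called members depended on the settings. At day 2 the 1 call of LN523 against LN521 became 0 with filterByExpr, DESeq2, both limma fits and the fit of all 27 libraries, and the 3 calls of LN323 against LN521 became 0 with filterByExpr, limma and 27 libraries and 1 with DESeq2. At day 22 the 2 and 4 calls against LN521 became 0 with filterByExpr, limma, no replicate block and, chosen after seeing the data, without LN521 replicate 1 of days 22 and 32, and 1 each with DESeq2. For LN523 the fit of the 2 groups compared gave 0 and 27 libraries gave 4. From day 22 to 32 on LN521 the 2 calls became 1 with RLE scaling, no replicate block and without LN521 replicate 1 of both days, and 0 with filterByExpr, DESeq2 and limma. The fit of the 2 groups gave 1 in place of 0 for LN523 against LN323 at day 32 and for LN523 from day 22 to 32. The same-lane day 2 library (replicate block) gave 1 differing pair in place of 0 in the day 32 order of loss, where DPPA2 is mostly set by the floor. The block changed no other count by over 1.5 times. The causes were not tested.

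With 1 library left out, counts of called members ranged from 0 to 3, 0 to 1 and 0 to 4 at day 2 (LN523 against LN323, LN523 against LN521, LN323 against LN521), 0 to 7 and 0 to 6 at day 22 against LN521, 0 to 2 and 0 to 5 from day 22 to 32 on LN523 and LN521, and 0 to 6 and 0 to 8 for the interactions with LN521. The day 22 order of loss ranged from 0 to 3 pairs, that of DPPA2 included.

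Against LN521, without its replicate 1 of the day, 6 and 4 of 10 negative fold changes turned positive at day 22 (LN523 and LN323), 4 and 7 at day 32, 8 from day 22 to 32 and 4 and 3 in the interactions. At day 2 sign changes also occurred. With 27 libraries they were DNMT3B (-0.0015, LN523 against LN323), DPPA2 (-0.028) and PRDM14 (0.11), both LN323 against LN521. With both limma fits they were POU5F1 (-0.030, LN523 against LN521) and DPPA2 (-0.19, LN323 against LN521), and for DPPA2 between LN523 and LN521 filterByExpr gave 0.0028 and the fit of 2 groups 0.031. With 1 library left out, LN523 against LN323 ran from -0.16 to 0.022 (DPPA4), -0.39 to 0.092 (DPPA2), -0.56 to 0.20 (L1TD1), -0.15 to 0.33 (TDGF1), -0.093 to 0.084 (DNMT3B) and -0.22 to 0.087 (ZFP42). LN523 against LN521 ran from -0.14 to 0.25 (DPPA2) and -0.030 to 0.49 (ZSCAN10), LN323 against LN521 from -0.11 to 0.42 (DPPA2) and -0.45 to 0.22 (PRDM14), and DPPA4 on LN521 from day 22 to 32 from -3.64 to 0.31. Of the values of the genes the text names in each comparison, leaving out the uncalled members after day 2, 901 kept their sign and side of the threshold, 112 lost a call, 13 gained one and 34 changed sign. Depth limits NANOG and DPPA2 in the late libraries, where many counts were under 3.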

Other observations

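SFRP2 was the 1 gene of the 20 other pluripotent stem cell genes that rose, from a median of 287 TPM at day 2 to 4902 TPM at day 22, by 3.69, 3.07 and 3.74 on the log2 scale on LN523, LN323 and LN521 (each passing in edgeR). It was the lowest of the 9 day 22 libraries in LN521 replicate 1, at 1941 TPM, so that the summed level of those 20 genes, 2816 TPM, was below the 2894 to 7151 TPM of the 8 others although 11 of the 20 were highest in that library.

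Among lost genes outside the 10, LNCPRESS1 kept 23.4% of its LN521 day 2 CPM in LN521 replicate 1 of day 22. LINC01090 kept 12.3% there and TRIML2 11.5%. The 8 other libraries were at 1% or less of the day 2 CPM of their own matrix. At day 32, 9 of 39 such genes were above 1% in LN521 replicate 1, with a median of 0.478%.

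In LN521 replicates 2 and 3, PRDM14 was higher at day 32 than at day 22 by 2.89 on the log2 scale with both replicate 1 libraries left out and passed in edgeR, on 2 and 4 counts at day 22 and 23 and 18 at day 32. In CPM, the 3 LN521 libraries of day 32 lay above all of LN523 (6.68% of genes did not overlap there) and of LN323 (6.64%) for PRDM14, and above all of LN323 for TDGF1. For LN523, 1 of 10 genes is close to the share of all genes.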
